A study of Mus musculus with 6 samples.

Results

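The integrin and laminin genes were described in mouse embryonic fibroblasts (MEFs) with and without the histone variant H2AX. The set holds 34 genes, 24 integrin chains and 10 laminin chains, out of 19938 genes tested. It was chosen by gene family, with earlier results of these data known. Each gene was read by the probe set whose array annotation gives only its symbol, and all 34 genes had 1 such probe set. The study compared 3 arrays of H2AX knockout MEFs, from H2AX mutant mice, with 3 arrays of wild-type MEFs, all hybridized with total RNA. No treatment is named for the cells of the arrays, and the study's culture section gives DMEM with fetal bovine serum for its MEFs. The study describes the arrays of a genotype as independent replicates. The strain, the sex and the number of embryos or lines behind each genotype could not be read from the labels or methods, and neither could whether independent means separate cultures or separate embryos. The p-values cover the variation among these 6 arrays. Values are log2 expression values as the authors normalized them, in which a fold-change of 2 is a difference of 1, and log2 differences are knockout minus wild-type. In bulk RNA of this kind, fewer cells of a type and less RNA per cell cannot be told apart.

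Laminins are secreted trimers of an alpha, a beta and a gamma chain that build the basement membrane, and nidogens and perlecan join them to its type IV collagen network. Integrins are receptors of an alpha and a beta chain that span the plasma membrane, bind laminins, collagens, fibronectin and other matrix proteins, and tie them through talin and kindlin to the actin cytoskeleton. The beta 1 chain pairs with many alpha chains, alpha v pairs with several beta chains, and a few chains serve mainly on leukocytes. Fibroblasts are known to adhere to fibronectin and fibrillar collagen, and many also secrete laminin chains.

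Integrin and laminin genes moved in both directions in H2AX knockout MEFs. Of the 34 genes, 10 rose, 10 fell and 14 did not reach an adjusted p under 0.05 (limma, Benjamini-Hochberg over all genes), where 18.4% of all genes tested were higher, 15% were lower and 33.4% passed in either direction. The members that passed were 58.8% of the set. With a fold-change over 2 as well, the threshold of the methods, 6 genes were higher (Lama4, Lama5, Itga8, Itga9, Itga11 and Itgb5) and 5 were lower (Itga5, Itga6, Itga7, Itgb3 and Itgb7), where 2.12% of all genes were higher and 3.18% were lower by this rule. These 11 genes were 32.4% of the set, against 5.3% of all genes. The median log2 difference was 0.01 over the members and 0.02 over all genes, whereas the median size without sign was 0.40 over the members and 0.13 over all genes. Knockout and wild-type arrays did not overlap for 22 members, or 64.7%, against 44.8% of all genes. Among integrin chains 7 were higher and 8 were lower, and among laminin chains 3 were higher and 2 were lower. All genes include dim ones. In a fit of only the 9969 genes with a mean at or above the median, 3095 were higher and 2399 were lower. Brighter genes thus passed more often, and the shares given against all genes are not matched for level. Of the 19 members in that fit, 5 integrin chains rose and 7 fell, and 3 laminin chains rose and 2 fell.

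**Figure D1:**
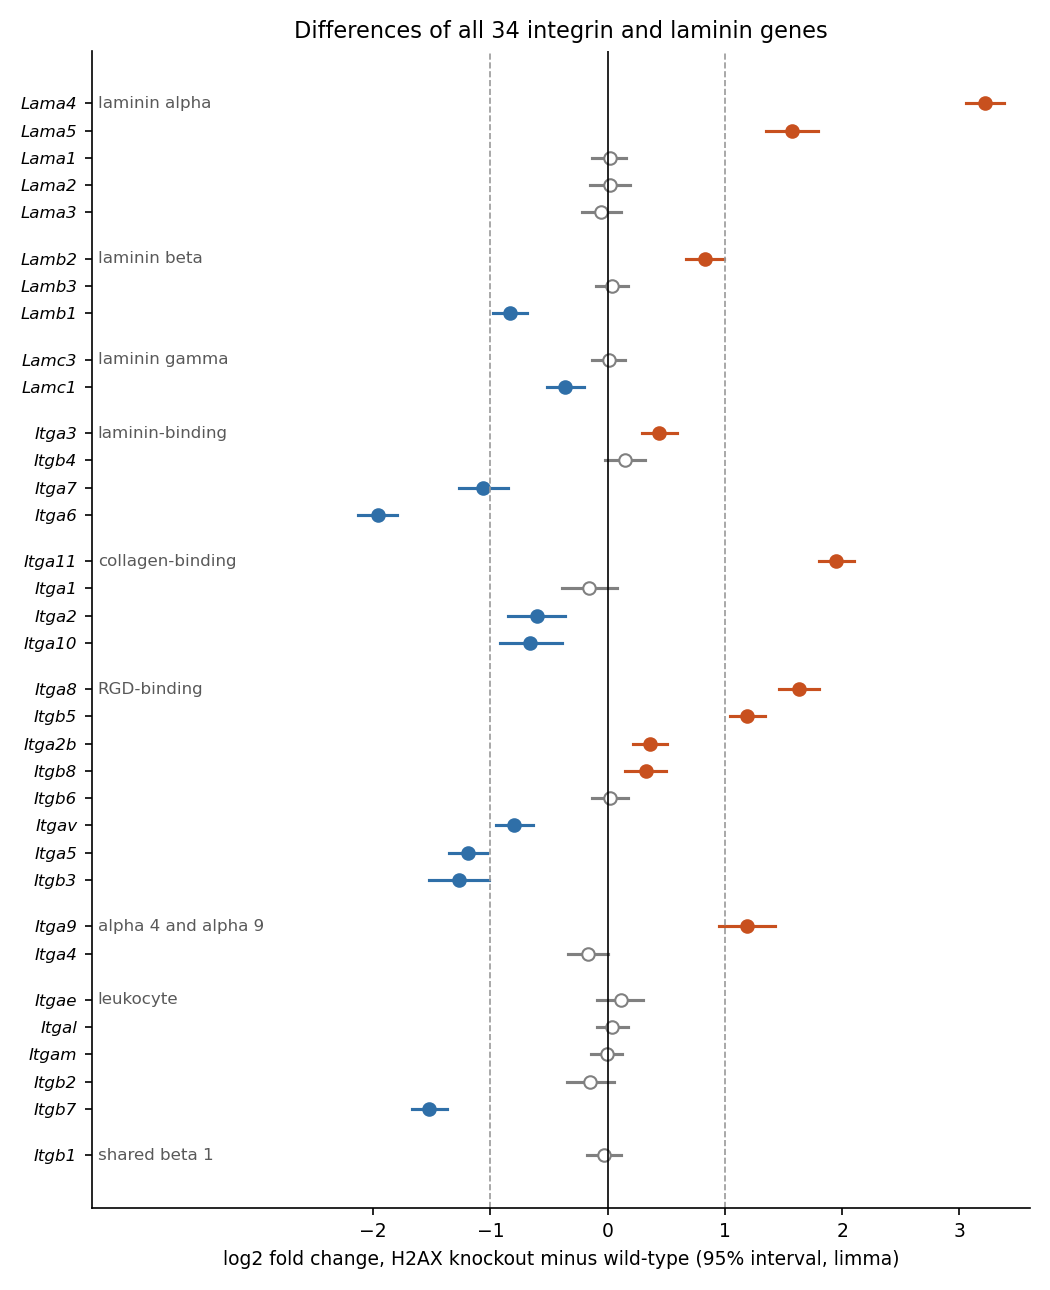
Difference in log2 value, knockout minus wild-type (x axis), for each of the 34 genes (rows, grouped by chain type or by the ligand class of the receptor), each point being limma's estimate and each bar its 95% interval. Filled points passed an adjusted p under 0.05, orange for higher and blue for lower, open points did not, and the dashed lines stand at a 2-fold difference. The points run from 3.22 for Lama4 to -1.96 for Itga6, and Itgb1 lies at -0.03.

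The transcript of the targeted gene H2ax had log2 values of 7.69, 7.77 and 7.67 on the knockout arrays, against 8.96, 9.18 and 9.0 on the wild-type arrays (log2 difference -1.34, limma adjusted p = 5.8e-07). The genotypes also differed in Y-linked transcripts, as Uty averaged 4.35 ± 0.07 in knockout cells and 8.08 ± 0.11 in wild-type cells (SD, n = 3 each), so that genotype and the embryo of origin cannot be told apart. Whole chromosomes leaned one way. On chromosome 8, 45.3% of 961 genes rose and 6.45% fell in knockout cells, and on chromosome 1, 5.33% of 1126 genes rose and 30.9% fell. The median log2 difference over brighter genes, those with a mean at or above the median of all genes, was 0.42 on chromosome 8, 0.26 on chromosome 17, -0.25 on chromosome 1 and -0.20 on chromosome 12, and for the other chromosomes with members it lay between -0.23 and 0.18. Of 16 markers of fibroblasts, 7 rose and 7 fell, or 87.5%, against 33.4% of all genes. With a fold-change over 2 as well, 37.5% passed, against 5.3% of all genes. Their log2 differences ran from -2.57 for Fap to 4.03 for Thy1. The mean log2 value over the list was 9.93 to 9.99 on knockout arrays and 9.89 to 9.99 on wild-type arrays, which hides these opposed changes. Markers of leukocytes (14), epithelium (16) and endothelium (12) averaged 5.09 to 5.51 on knockout arrays and 5.11 to 5.39 on wild-type arrays.

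Among laminin alpha chains, which carry the sites that integrins bind, Lama4 and Lama5 were higher in H2AX knockout MEFs and Lama1, Lama2 and Lama3 did not pass the test. Lama4, the alpha chain of laminins of vessels, muscle and fat, had log2 values of 8.92, 8.73 and 8.87 on knockout arrays, against 5.66, 5.64 and 5.55 on wild-type arrays. Every knockout array stood far above every wild-type array, at a log2 difference of 3.22 (standard error 0.07, limma adjusted p = 1.2e-09), a size of 9.33-fold. This was the largest difference of the set. The wild-type mean of 5.62 lay below the median log2 value of all genes (6.39). Lama5, the alpha chain of the laminins of most mature basement membranes, had log2 values of 7.67, 7.93 and 7.62 on knockout arrays, against 6.10, 6.08 and 6.33 on wild-type arrays. The groups did not overlap, and the log2 difference was 1.57 (standard error 0.10, limma adjusted p = 1.4e-06). Lama1, the alpha chain of the laminin of the early embryo, averaged 5.46 in knockout and 5.45 in wild-type cells. Lama2, the muscle and nerve chain whose loss causes muscular dystrophy, averaged 6.35 in knockout and 6.32 in wild-type cells. Lama3, the epidermal chain, averaged 4.91 in knockout and 4.97 in wild-type cells. The 95% intervals of these 3 differences lay between -0.22 and 0.19.

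**Figure D2:**
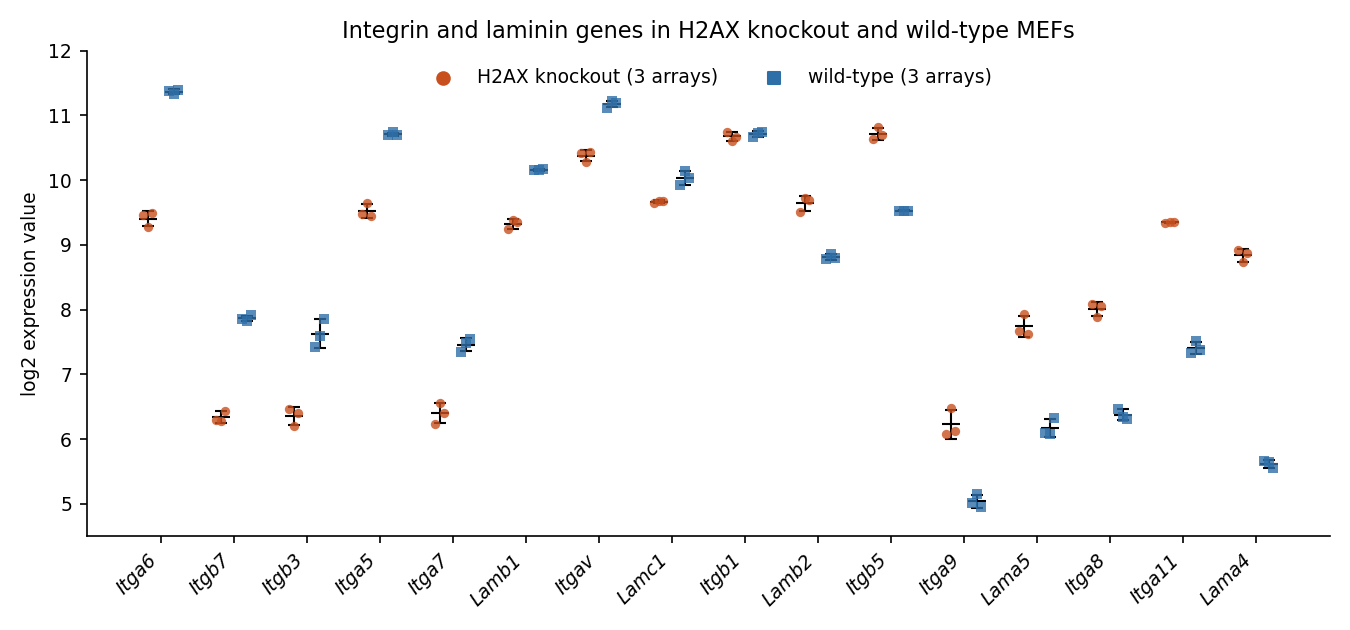
Log2 expression values (y axis) of 16 integrin and laminin genes (x axis, ordered by log2 difference) on 3 H2AX knockout arrays (orange circles) and 3 wild-type arrays (blue squares), with black lines for the mean and the SD. For 15 of the 16 genes the knockout and wild-type points do not overlap, and for Itgb1 they do.

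The beta chains changed in opposite directions. Lamb2, the beta chain known from synapses and the kidney filter, had log2 values of 9.51, 9.73 and 9.69 on knockout arrays, against 8.78, 8.86 and 8.80 on wild-type arrays (log2 difference 0.83, standard error 0.07, limma adjusted p = 1.5e-05). Lamb1, the beta chain of most laminins in the embryo, had log2 values of 9.24, 9.39 and 9.35 on knockout arrays, against 10.15, 10.15 and 10.17 on wild-type arrays (log2 difference -0.83, standard error 0.06, limma adjusted p = 5.9e-06). For both genes the groups were apart on all arrays, with Lamb2 above and Lamb1 below in knockout cells. Within each array, the log2 value of Lamb2 minus that of Lamb1 was 0.28, 0.34 and 0.34 in knockout cells, against -1.36, -1.30 and -1.37 in wild-type cells. This difference moved by 1.66. The exact two-sided permutation test gave p = 0.10, the smallest that 3 arrays against 3 allow. This result was fixed in advance, as the pair was chosen after its genes were seen to differ without overlap in opposite directions. Lamb3, which belongs to the epidermal laminin, averaged 5.47 in knockout and 5.43 in wild-type cells (limma adjusted p = 0.71). Lamc1, the gamma chain that most laminins share, had log2 values of 9.65, 9.68 and 9.68 on knockout arrays, against 9.92, 10.14 and 10.04 on wild-type arrays. It was lower on every knockout array, with a log2 difference of -0.36 (standard error 0.07, limma adjusted p = 0.0030). Lamc1 lies on chromosome 1, whose brighter genes had a median of -0.25, and Lamb1 on chromosome 12, with a median of -0.20, and the part of the chromosomes in these differences was not tested. Lamc3 averaged 6.72 in knockout and 6.70 in wild-type cells.

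The promoter windows of the opposed beta chains are shown to compare their sequence, from 250 bases before to 50 after the start of the gene, as RefSeq gives them for GRCm38.p6. Windows were searched on both strands for 5 motifs. The first was the GC box, which Sp1 binds, with the letters GGGCGG. The core promoter was searched for a TATA box, with the letters TATAAA. Sites of the AP-1 factors Fos and Jun were sought as TGANTCA. The core of the antioxidant response element, to which NRF2 binds, was sought as TGACNNNGC. Sites of the TEAD factors, which act with YAP, were sought as GGAATG. Capitals mark these motifs, and all capitals in the 2 windows are GC boxes on the complementary strand.
Lamb2 (chr9:108479612-108479911, plus strand): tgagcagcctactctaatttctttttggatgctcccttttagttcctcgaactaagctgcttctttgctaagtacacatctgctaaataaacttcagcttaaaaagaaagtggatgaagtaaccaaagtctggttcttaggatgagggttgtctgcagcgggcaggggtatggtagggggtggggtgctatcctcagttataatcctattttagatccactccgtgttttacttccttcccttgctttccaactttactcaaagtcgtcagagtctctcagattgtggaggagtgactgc
Lamb1 (chr12:31265043-31265342, plus strand): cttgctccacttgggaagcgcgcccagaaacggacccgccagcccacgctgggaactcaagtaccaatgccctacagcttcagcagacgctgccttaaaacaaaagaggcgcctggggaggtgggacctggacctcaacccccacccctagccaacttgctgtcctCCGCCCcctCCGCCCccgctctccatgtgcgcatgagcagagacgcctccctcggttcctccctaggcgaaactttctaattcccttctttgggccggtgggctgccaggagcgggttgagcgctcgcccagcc
The Lamb1 window held 2 GC boxes at a GC content of 63.7%, and the Lamb2 window held none of the 5 motifs at 44.0%. Windows were found for 22 of the 34 genes (25 windows in all), of which 12 held a GC box, against 35.7% of all 32851 windows. The antioxidant response element core occurred in 3 windows, those of Itga9, Itgb1 and Itgb6, against 12.4% of all windows. The AP-1 site occurred in 2 windows (7.81% of all windows), the TEAD site in 3 (14.7%) and the TATA box in 0 (13.6%). None of the motif matches overlapped another, and a match is a description of the letters only.

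Of 30 genes for partners of laminin in the basement membrane, 5 rose, 7 fell and 18 stayed short of the threshold, at a median log2 difference of 0.05. The share that passed was 40%, near the 33.4% of all genes, and without moderation of the variance 3 genes rose. With a fold-change over 2 as well, 16.7% of the list passed, against 5.3% of all genes. The nidogens, which bind the laminin gamma 1 chain and link it to type IV collagen, changed in opposite directions. Nid1 had log2 values of 9.99, 10.10 and 10.04 on knockout arrays, against 11.52, 11.54 and 11.57 on wild-type arrays (log2 difference -1.5, limma adjusted p = 6.1e-08). Nid2 had log2 values of 8.65, 8.78 and 8.66 on knockout arrays, against 7.17, 7.27 and 7.19 on wild-type arrays (log2 difference 1.49, limma adjusted p = 1.1e-07). Knockout arrays were thus lower in Nid1 and higher in Nid2 without overlap. The largest decrease of the list was in Col18a1, the collagen that yields endostatin, with a log2 difference of -1.79 (limma adjusted p = 1.4e-06). Sspn, sarcospan of the dystrophin complex, rose by 1.02 (adjusted p = 3.8e-05). Col4a1 and Col4a2, the main chains of type IV collagen, had log2 differences of 0.14 and 0.05 and did not pass the test, and Dag1, the dystroglycan that binds laminin without an integrin, had 0.27 (adjusted p = 0.057). Col4a1 and Col4a2 lie on chromosome 8, whose brighter genes had a median of 0.42, and the part of the chromosome was not tested.

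Among receptor chains for laminin, Itga6 and Itga7 were lower and Itga3 was higher in H2AX knockout MEFs. Itga6, which pairs with beta 1 or beta 4, had log2 values of 9.46, 9.27 and 9.49 on knockout arrays, against 11.38, 11.33 and 11.40 on wild-type arrays. Its log2 difference was -1.96 (standard error 0.07, limma adjusted p = 3.5e-08), a size of 3.89-fold and the largest decrease of the set. Itga7, the main laminin receptor chain of muscle, had log2 values of 6.24, 6.56 and 6.41 on knockout arrays, against 7.35, 7.48 and 7.55 on wild-type arrays (log2 difference -1.06, standard error 0.09, limma adjusted p = 1.4e-05). Both genes were lower on each knockout array than on each wild-type array, and without knockout replicate 1 the log2 difference of Itga7 was -0.977, short of 2-fold. Over 12 skeletal muscle markers the mean log2 value was 5.39 to 5.55 on knockout arrays and 5.65 to 5.73 on wild-type arrays. Of these markers, 1 was higher and 1 was lower (Chrna1, at -3.28), or 16.7%, against 33.4% of all genes. The marker means lay below the median of all genes (6.39), so the shares are not matched for level. The median log2 difference over the markers was 0.05, and their part in the Itga7 difference was not tested. Itga3, which binds laminins with an alpha 3 or alpha 5 chain, had log2 values of 8.12, 8.27 and 8.22 on knockout arrays, against 7.81, 7.70 and 7.78 on wild-type arrays (log2 difference 0.44, standard error 0.07, limma adjusted p = 0.00060). Itgb4, the hemidesmosome chain that pairs only with alpha 6, had a log2 difference of 0.15 (95% interval -0.02 to 0.32, adjusted p = 0.18). In the laminin system, therefore, the higher alpha 4 and alpha 5 ligand chains stood beside 2 lower and 1 higher receptor alpha chain.

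**Figure D3:**
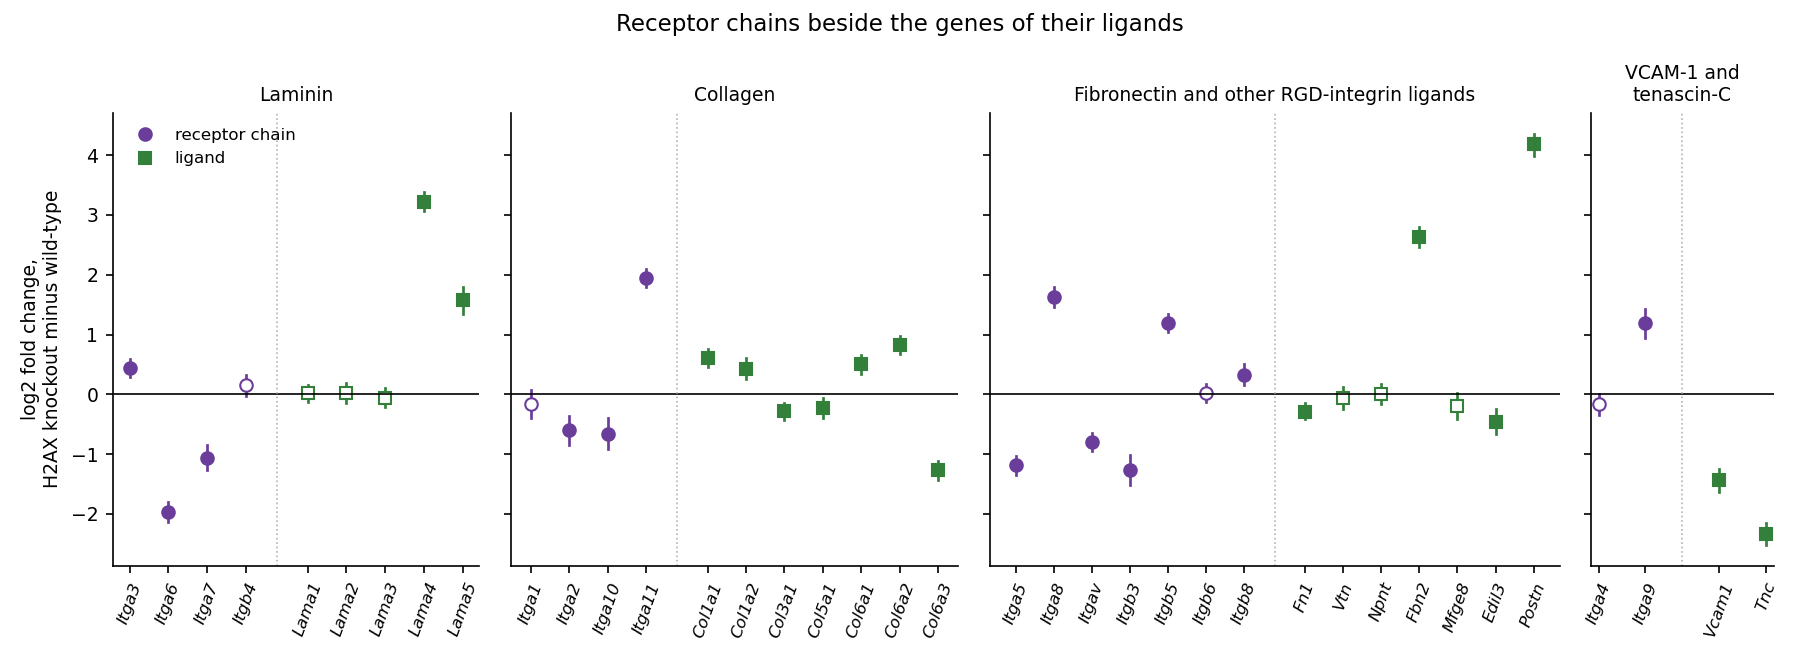
Difference in log2 value, knockout minus wild-type (y axis), with 95% intervals from limma, for receptor chains (purple circles) and genes of their ligands (green squares) in 4 ligand classes, where filled symbols passed an adjusted p under 0.05. Higher and lower receptor chains stand beside each other for laminin, collagen and fibronectin, and in the last panel Vcam1 (-1.44) and Tnc (-2.33) are lower while Itga9 is higher (1.19).

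Of the 4 receptor chains for collagen, Itga11 was higher, Itga2 and Itga10 were lower and Itga1 did not pass the test. Itga11, the fibrillar collagen receptor of fibroblasts and mesenchymal cells, had log2 values of 9.34, 9.36 and 9.35 on knockout arrays, against 7.33, 7.51 and 7.37 on wild-type arrays. The 3 knockout arrays lay close together and far above wild-type, at a log2 difference of 1.95 (standard error 0.07, limma adjusted p = 2.1e-08), a size of 3.86-fold. Itga2, the collagen receptor chain of platelets and epithelium, averaged 5.77 ± 0.18 in knockout and 6.37 ± 0.18 in wild-type cells (SD, n = 3 each), with a log2 difference of -0.60 (limma adjusted p = 0.0020). Itga10, the chain of cartilage cells, averaged 6.11 ± 0.24 in knockout and 6.76 ± 0.12 in wild-type cells, with a log2 difference of -0.66 (limma adjusted p = 0.0018). In the fit of the methods, which does not moderate the variance across genes, Itga2 and Itga10 each had an adjusted p of 0.056. Itga1, which prefers type IV collagen, had a log2 difference of -0.16 (95% interval -0.39 to 0.08). Itga11 minus Itga2 within an array was 3.66, 3.39 and 3.69 in knockout cells, against 0.75, 1.19 and 1.14 in wild-type cells. The difference moved by 2.55 toward Itga11 (exact two-sided permutation p = 0.10, the smallest possible). This p-value was fixed in advance, as the pair was chosen after its genes were seen to differ without overlap in opposite directions. Both chains of type I collagen, the ligand of alpha 11, were higher, with log2 values of 11.99, 12.03 and 12.01 for Col1a1 on knockout arrays, against 11.32, 11.40 and 11.51 on wild-type arrays. Their log2 differences were 0.60 for Col1a1 (adjusted p = 8.4e-05) and 0.43 for Col1a2 (adjusted p = 0.0016). Other collagens of the list went both ways, since Col6a2 rose by 0.82 and Col6a1 by 0.50, and Col6a3, Col3a1 and Col5a1 had log2 differences of -1.27, -0.28 and -0.23, each at an adjusted p under 0.05.

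Receptors that bind fibronectin and other ligands with an RGD motif also changed in opposite directions. Itga5, the alpha chain of the main fibronectin receptor alpha 5 beta 1, had log2 values of 9.47, 9.65 and 9.45 on knockout arrays, against 10.70, 10.74 and 10.70 on wild-type arrays. It was lower on all knockout arrays, with a log2 difference of -1.19 (standard error 0.07, limma adjusted p = 9.1e-07). Itga8, which binds nephronectin and fibronectin and marks kidney mesenchyme and contractile stromal cells, had log2 values of 8.08, 7.88 and 8.05 on knockout arrays, against 6.47, 6.34 and 6.31 on wild-type arrays. It was higher on all knockout arrays, with a log2 difference of 1.63 (standard error 0.08, limma adjusted p = 1.7e-07). Within an array, Itga8 minus Itga5 was -1.39, -1.78 and -1.41 in knockout cells, against -4.24, -4.41 and -4.39 in wild-type cells. The shift was 2.82 (exact two-sided permutation p = 0.10, the smallest possible). This pair too was chosen after its values were seen, so the p-value was fixed in advance. The gene of fibronectin itself, Fn1, had log2 values of 12.53, 12.63 and 12.58 on knockout arrays, against 12.85, 12.87 and 12.88 on wild-type arrays (log2 difference -0.29, limma adjusted p = 0.0045). Npnt, which encodes nephronectin, had a log2 difference of 0.01 (95% interval -0.16 to 0.18), with a sign that varied between settings.

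The promoter windows of Itga8 and Itga5 are shown as those of a second pair of chains with a shared ligand and opposite changes. Capitals mark motifs as above.
Itga8 (chr2:12301895-12302194, minus strand): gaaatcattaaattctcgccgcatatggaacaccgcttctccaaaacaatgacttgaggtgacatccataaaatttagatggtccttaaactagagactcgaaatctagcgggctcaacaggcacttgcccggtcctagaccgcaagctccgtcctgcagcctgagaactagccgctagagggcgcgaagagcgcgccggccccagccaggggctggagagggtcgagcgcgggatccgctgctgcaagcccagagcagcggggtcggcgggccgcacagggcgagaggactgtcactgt
Itga5 (chr15:103366742-103367041, minus strand): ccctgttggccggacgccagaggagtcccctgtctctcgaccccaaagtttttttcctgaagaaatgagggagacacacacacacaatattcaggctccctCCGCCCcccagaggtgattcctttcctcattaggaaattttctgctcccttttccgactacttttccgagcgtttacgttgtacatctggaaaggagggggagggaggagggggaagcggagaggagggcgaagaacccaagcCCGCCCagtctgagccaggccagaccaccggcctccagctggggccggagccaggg
The Itga5 window held 2 GC boxes, both on the complementary strand, and the Itga8 window held none of the 5 motifs, with GC contents of 58.7% and 59.0%. GC boxes were thus found in windows of lower genes (Itga5, Lamb1, Itgav and Itga2) and of higher genes (Lama5 with 4, Itgb5 with 3, and Itga3). They were also found in windows of genes that did not pass the test (Itga4, Itgam, Itgb1 and Lama2).

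The alpha v receptors, which bind vitronectin, fibronectin and latent TGF-beta, were lower in their alpha chain and changed in most of their beta chains. Itgav had log2 values of 10.42, 10.28 and 10.44 on knockout arrays, against 11.12, 11.22 and 11.19 on wild-type arrays (log2 difference -0.80, standard error 0.07, limma adjusted p = 1.2e-05). Itgb3, the beta chain of the vitronectin receptor alpha v beta 3 and of the platelet fibrinogen receptor, had log2 values of 6.47, 6.20 and 6.41 on knockout arrays, against 7.42, 7.60 and 7.86 on wild-type arrays (log2 difference -1.27, standard error 0.11, limma adjusted p = 1.8e-05). Knockout cells were below wild-type on every array for both genes. Itgb5, the beta chain of the vitronectin receptor alpha v beta 5, had log2 values of 10.63, 10.82 and 10.70 on knockout arrays, against 9.53, 9.52 and 9.53 on wild-type arrays. It rose without overlap, at a log2 difference of 1.19 (standard error 0.07, limma adjusted p = 5.6e-07). Itgb5 minus Itgb3 within an array was 4.16, 4.62 and 4.29 in knockout cells, against 2.11, 1.92 and 1.67 in wild-type cells. The shift was 2.46 toward beta 5 (exact two-sided permutation p = 0.10, the smallest possible). This pair too was chosen after its values were seen, so the p-value was fixed in advance. Itgb8, whose receptor activates latent TGF-beta, had log2 values of 7.36, 7.24 and 7.40 on knockout arrays, against 7.13, 6.98 and 6.92 on wild-type arrays (log2 difference 0.33, limma adjusted p = 0.0083, and 0.057 without moderation of the variance). Itgb6, the epithelial partner of alpha v, had values of 4.15 to 4.31 on knockout arrays and 4.18 to 4.22 on wild-type arrays and did not pass the test. Itga2b, the platelet alpha chain that pairs with beta 3, averaged 6.56 ± 0.01 in knockout and 6.19 ± 0.08 in wild-type cells (SD, n = 3 each), with a log2 difference of 0.36 (limma adjusted p = 0.0017). Of 6 platelet markers measured, Ppbp, a platelet chemokine precursor, was lower (-2.13) and none was higher. The share that passed was 16.7%, against 33.4% of all genes. The list was dimmer in its mean than the median of all genes (6.39), so the shares are not matched for level. The mean log2 value over the list was 5.36 to 5.39 on knockout arrays and 5.65 to 5.71 on wild-type arrays. The median log2 difference over the list was 0.04, so the lower mean does not describe the list as a whole.

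Of 36 measured integrin ligands other than laminins, 11 rose, 11 fell and 14 stayed short of the threshold. The share that passed was 61.1%, against 33.4% of all genes, and is not matched for level. In the fit of the 9969 brighter genes alone, 3095 genes were higher and 2399 were lower. The largest rise was in a ligand of alpha v receptors. Postn, periostin, an adhesion ligand of alpha v beta 3 and alpha v beta 5, had log2 values of 12.26, 12.12 and 12.26 on knockout arrays, against 7.89, 8.07 and 8.15 on wild-type arrays (log2 difference 4.18, limma adjusted p = 6.9e-10). Fbn2, fibrillin 2 of elastic microfibrils, which carries an RGD motif, had a log2 difference of 2.63 (limma adjusted p = 4.3e-09). Thbs2, thrombospondin 2, had a log2 difference of -1.58 (adjusted p = 7.1e-08), and the vitronectin gene Vtn of -0.06 (95% interval -0.24 to 0.12). The median over the list was -0.02.

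The 2 alpha chains that bind VCAM-1 differed in their test result. Itga9, which also binds tenascin-C and osteopontin, had log2 values of 6.08, 6.48 and 6.12 on knockout arrays, against 5.02, 5.15 and 4.95 on wild-type arrays (log2 difference 1.19, standard error 0.11, limma adjusted p = 1.8e-05). Of these ligands Tnc and Vcam1 were measured, and osteopontin (Spp1) was not analysed here. Tnc, tenascin-C, had log2 values of 8.57, 8.83 and 8.64 on knockout arrays, against 11.04, 11.08 and 10.92 on wild-type arrays (log2 difference -2.33, limma adjusted p = 2.4e-08). Vcam1 had 9.01, 8.70 and 8.88 on knockout arrays, against 10.24, 10.36 and 10.31 on wild-type arrays (log2 difference -1.44, limma adjusted p = 8.3e-07). Tnc and Vcam1 were thus lower and Itga9 higher on every knockout array. Itga9 was dim, with means of 6.23 in knockout and 5.04 in wild-type cells, below the median log2 value of all genes (6.39). The filter that removed the dimmer 50% of genes left Itga9 out. Itga4 averaged 4.89 in knockout and 5.06 in wild-type cells, with a log2 difference of -0.17 (limma adjusted p = 0.13, and 0.049 without wild-type replicate 3).

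Integrin chains of leukocytes lay in the dim part of the arrays, with 1 exception. Itgb2, the beta chain of the leukocyte integrins, averaged 5.33 in knockout and 5.48 in wild-type cells, its partners Itgal 5.24 in knockout and 5.20 in wild-type and Itgam 4.61 in knockout and 4.62 in wild-type cells, and Itgae, which binds E-cadherin, 5.07 in knockout and 4.96 in wild-type cells. None of these 4 passed the test. Of 14 leukocyte markers, 1 was higher and 1 was lower, or 14.3%, against 33.4% of all genes. The markers averaged 5.09 to 5.21 on knockout arrays and 5.11 to 5.14 on wild-type arrays. These means lay below the median of all genes (6.39), so the shares are not matched for level. The defining gene of leukocytes, Ptprc (CD45), had a log2 difference of -0.02. The exception was Itgb7, the gut-homing beta chain that pairs with alpha 4 or alpha E, with log2 values of 6.29, 6.28 and 6.44 on knockout arrays, against 7.86, 7.82 and 7.91 on wild-type arrays. It was lower on every knockout array, at a log2 difference of -1.52 (standard error 0.07, limma adjusted p = 1.1e-07), while neither of its partner chains passed the test.

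The shared chain Itgb1 showed no detectable difference. Its log2 values were 10.75, 10.61 and 10.67 on knockout arrays, against 10.66, 10.73 and 10.74 on wild-type arrays, and the groups overlapped. The log2 difference was -0.03 (95% interval -0.18 to 0.11, limma adjusted p = 0.76), and 0.006 after quantile normalization. Itgb1 is the only member on chromosome 8, whose brighter genes had a median log2 difference of 0.42, and the part of the chromosome in this value was not tested. Of its partner alpha chains in the set, Itga3, Itga8, Itga9 and Itga11 were higher, Itga2, Itga5, Itga6, Itga7, Itga10 and Itgav were lower, and Itga1 and Itga4 did not pass. All 3 members on chromosome 9, which also carries H2ax, were higher (Itga9, Itga11 and Lamb2), where 23.7% of 1167 genes of that chromosome were higher, at a median of 0.13 over its brighter genes. Minus the median of the brighter genes of their own chromosome, the 6 higher members past a fold-change of 2 had log2 differences of 1.01 (Itgb5) to 3.11 (Lama4), and the 5 lower ones of -1.87 (Itga6) to -1.15 (Itga5). The part of the chromosomes in these differences was not tested.

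**Figure D4:**
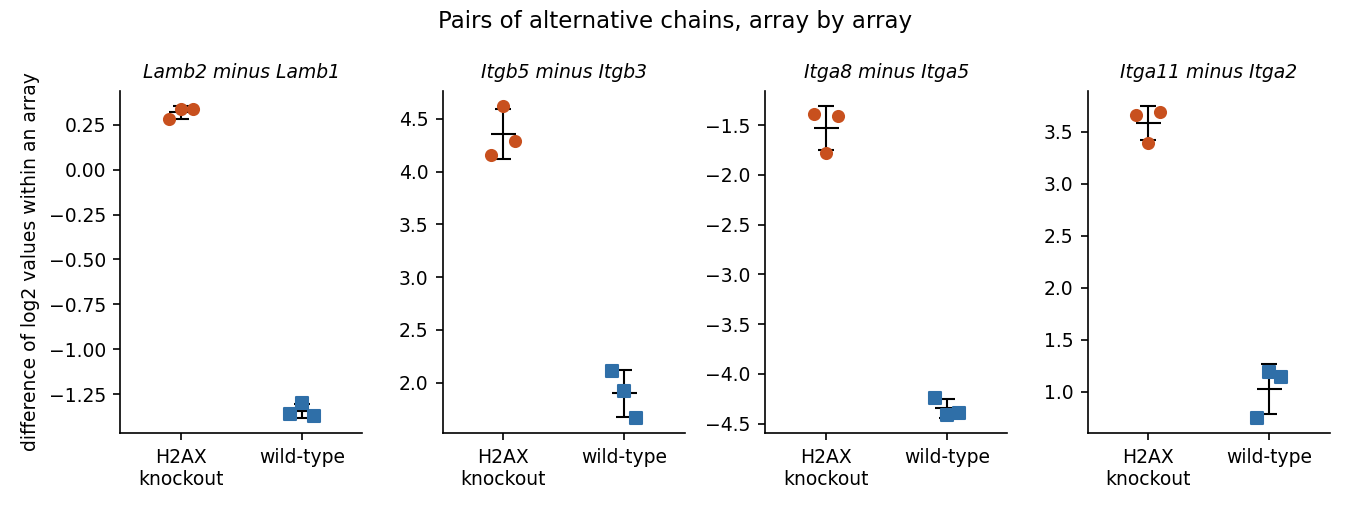
Difference of 2 log2 values within each array (y axis, a scale of its own in each panel) for 4 pairs of alternative chains, on 3 H2AX knockout arrays (orange circles) and 3 wild-type arrays (blue squares), with black lines for the mean and the SD. Only the shift between genotypes can be read from it, since levels of different probe sets are not comparable, and the shifts are 1.66, 2.46, 2.82 and 2.55 from left to right. The pairs were chosen after their values were seen.

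Genes that connect integrins to the cytoskeleton also changed in both directions. Of 39 measured genes of integrin activation and focal adhesions, 8 rose, 14 fell and 17 stayed short of the threshold, at a median log2 difference of -0.13. The share that passed was 56.4%, against 33.4% of all genes (18.4% higher and 15% lower). This share is not matched for level, as 3095 of the 9969 brighter genes fitted alone were higher and 2399 were lower. Of this list, 7 genes were higher and 14 were lower in that fit. The count of lower genes was 9 without wild-type replicate 2 or without wild-type replicate 3. Parvb, beta-parvin of the complex with integrin-linked kinase, had log2 values of 7.46, 7.70 and 7.54 on knockout arrays, against 10.22, 10.19 and 10.37 on wild-type arrays (log2 difference -2.69, limma adjusted p = 9.1e-09). Apbb1ip, the RIAM adaptor that recruits talin, had a log2 difference of -1.32 (limma adjusted p = 4.0e-07). Tns3, a tensin that binds beta chain tails, rose by 1.52 (adjusted p = 3.4e-07) and Fermt2, the kindlin of fibroblasts, by 0.70 (adjusted p = 5.6e-05). The talin genes divided, with log2 differences of -0.43 for Tln1 and 0.37 for Tln2, each past the test. Of 16 membrane proteins associated with integrins, 3 rose, 8 fell and 5 stayed short of it. The share that passed was 68.8%, against 33.4% of all genes, and none of the 16 reached a fold-change of 2. This share is not matched for level either. The lower ones included Plaur, the urokinase receptor, at -0.93 (limma adjusted p = 2.5e-05), the syndecan Sdc1 at -0.74 (adjusted p = 1.7e-05) and the tetraspanins Cd81 and Cd151 at -0.63 and -0.55. The higher ones included Slc3a2, the heavy chain that binds beta 1 and beta 3 tails, at 0.66 (adjusted p = 6.7e-05) and Cd82 at 0.58 (adjusted p = 0.00028).

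The 14 members that did not pass the test had log2 differences between -0.17 and 0.15, and the 95% intervals of their differences lay between -0.39 and 0.32. Among them the arrays of the genotypes did not overlap for 2 genes, Itga4 and Itgb2. The 44.8% of all genes without overlap includes genes that passed, so it cannot be set against this count. For the chain pairs compared within arrays, the pairs were chosen after their values were seen.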

How the data were processed

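Total RNA of 3 H2AX knockout and 3 wild-type MEF samples was hybridized to 6 Affymetrix Mouse Gene ST arrays. The authors made CHP files with Affymetrix Expression Console, then loaded the CEL files into Partek Genomics Suite 6.6 to normalize them, and deposited log2 values (2.94 to 13.7, array medians 6.06 to 6.12). The normalization method is not given in the sources used here. Arrays have no read depth, and their number limits the precision. The study names the 2.0 version of the array, and the probe set identifiers matched the annotation of the 1.0 version.

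Of 35556 probe sets, 21789 had 1 gene symbol, 1621 had several, and 12146 were not listed in the annotation; 21698 of those with 1 symbol matched RefSeq (GRCm38.p6) and gave 19938 genes, with the probe set of the highest mean over the 6 arrays used for the 999 genes with more than 1. Knockout minus wild-type was fitted with limma 3.58.1 (lmFit, eBayes) in R 4.3.3 with Benjamini-Hochberg adjustment over all genes, and called at an adjusted p under 0.05. In data simulated for this comparison, 200 of 19938 genes were changed. Of these, 99% of those set to a log2 difference of 1.5 and 72% of those set to 0.5 were called. In the arrays 33.4% of genes were called, a far larger share than was changed in the simulation. The percentages therefore do not give the sensitivity of the comparison itself. The 13 alternative fits were quantile normalization, median centring, the methods' one-way ANOVA, eBayes with trend and robust estimation, averaging over a gene's probe sets, a filter that removed the dimmer 50% of genes, a replicate block, and each of the 6 arrays left out; the methods' fold-change over 2 was a further rule.

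The members and gene lists were chosen with earlier results of these data known. Array values are given for members past a fold-change of 2 and for shared chains, and from each other list the 2 largest rises and falls and the ligands of the members. Uty, Dag1, Ptprc, Col4a1, Col4a2, Tln1, Tln2, Cd81, Cd151, Lamb2, Itga3 and Itgb8 were named or given in full after their values were seen. Deviations of same-numbered arrays from their group means had correlations of -0.293, -0.239 and 0.080. For differently numbered arrays the correlations lay between -0.165 and 0.320. The labels do not say whether the numbers pair the arrays, and correlations of this size cannot decide it.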

Additional observations from a re-analysis of the deposited data

How the results depend on the processing

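The 11 members past a fold-change of 2 kept their direction and an adjusted p under 0.05 in all alternative fits in which they were tested, but Itga7 was at -0.977, short of 2-fold, without knockout replicate 1, and 19 members passed the filter on low values. With the fold-change over 2 as a further rule, 4 integrin genes rose and 5 fell, 0 laminin genes fell, other ligands gave 2 higher and 4 lower, basement membrane partners 2 higher and 3 lower, focal adhesion machinery 1 higher and 2 lower, and associated membrane proteins 0 in either direction. By this rule 37.5% of integrin genes, 20% of laminin genes and 16.7% of other ligands passed. The share was 16.7% for basement membrane partners and 7.69% for focal adhesion machinery. Over all genes 5.3% passed, with 2.12% higher and 3.18% lower. The one-way ANOVA left 3 basement membrane partners higher. With 1 array left out in turn, 7 integrin genes were higher in each fit and 8 to 9 were lower, and 9 to 14 machinery genes were lower, with 9 without wild-type replicate 2 or wild-type replicate 3. With the replicate number as a block, 7 integrin genes were higher and 8 lower and 3 laminin genes higher and 2 lower, as without it, and 3170 genes of all tested were higher and 2640 lower, against 3676 and 2990 without the block. Signs turned only in genes that did not pass the test: Itgb1 was 0.006 and Npnt -0.014 after quantile normalization, and over the fits with 1 array left out the range was -0.025 to 0.006 for Itgam, -0.024 to 0.058 for Itgb6, -0.012 to 0.047 for Lama1, -0.032 to 0.093 for Lama2, -0.014 to 0.041 for Lamc3, -0.041 to 0.070 for Npnt and -0.096 to 0.005 for Vtn. Itga2 and Itga10 (adjusted p of 0.056 each) and Itgb8 (0.057) lost their call in the one-way ANOVA, and Itga4 gained one without wild-type replicate 3 (-0.235, adjusted p of 0.049). The cause was not tested. Differences of dim probe sets are limited by their signal over background, for which no measure was used here.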
